A study of Mus musculus with 12 samples.

Results

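Mouse embryonic stem cells without the helicase DHX36 were compared with wild-type cells of the same line, by counts of polyadenylated transcripts across all genes. The comparison took the 3 libraries labelled as DHX36 knockout and the 3 labelled as wild type, 6 of the 12 libraries of the series, and left out the spike-in transcripts. All cells were of the IB10 line, which comes from 129/Ola mice, and were untreated. They were grown on gelatin in medium conditioned by rat liver cells, with calf serum and leukaemia inhibitory factor. The other 6 libraries, 3 of a FANCJ knockout and 3 of a double knockout of DHX36 and FANCJ, entered the same fit, and so its estimate of the spread, and were used to ask whether a difference was also seen there. The labels give no clone numbers, and neither the deleted stretch of Dhx36 nor separate cultures are described. A difference between genotypes therefore cannot be told apart from a difference between cell clones, and p-values measure only the spread between these libraries, which may be technical.

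DHX36 is a helicase of the DEAH-box family that binds and unwinds G-quadruplexes, folded structures formed by neighbouring runs of guanine in RNA or DNA. It is known to bind mRNAs in the cytoplasm and to affect their translation and decay, and it has been linked to stress granules. Embryonic stem cells in serum and leukaemia inhibitory factor are a mixed population: most cells express the core pluripotency factors, and the genes of the naive state, of the later formative and primed states and of a rare state like the 2-cell embryo vary from cell to cell.

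The knockout libraries were deeper, with 6223087 to 10919405 counts against 4284785 to 5792862 in wild type, and had more genes with a count (16653 to 17623 against 15392 to 15984). Mitochondrial transcripts took 11.01% to 12.3% of counts in the knockout and 10.01% to 10.6% in wild type. Over the 500 genes that varied most among these 6 libraries, the first principal component held 61.2% of the variance and separated the genotypes, and the second held 14.7%. Levels below are CPM, counts scaled to a common library size with normalised totals. Fold changes are log2 ratios of knockout to wild type from edgeR's quasi-likelihood fit, with standard error (SE), and a gene was called at a Benjamini-Hochberg adjusted p under 0.05 over 12765 genes.

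The targeted transcript was low in every library named for its loss. Dhx36 (chromosome 3, 62468013 to 62507004, minus strand, GRCm38) was at 54.7, 57.6 and 50.1 CPM in wild type and at 10.9, 8.84 and 11.7 CPM in the knockout. The groups did not overlap, and the level fell by 2.35 on the log2 scale (SE 0.129, adjusted p = 4.58e-11). Brip1, the gene of FANCJ, was at 6.72 to 7.03 CPM in wild type and 6.45 to 7.42 CPM in the knockout, so its ranges overlapped (0.01, SE 0.261, adjusted p = 0.985).

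Of the 12765 genes tested, 3113 were called, which is 24.4%. There were 1628 higher genes (12.8%) and 1485 lower genes (11.6%), and these shares are the background for every gene group below. The groups did not overlap for 4805 genes (37.6%), with the knockout above wild type for 19.6% of genes and below it for 18.1%. Many called differences were small: 592 of the higher and 803 of the lower genes differed by less than 1.5-fold, while 119 and 38 differed by more than 4-fold. At least 2-fold differences were seen for 522 higher genes (4.09%) and 244 lower genes (1.91%). Of these, 305 and 120 were under 5 CPM, and with libraries thinned to equal depth the counts were 399 and 225. Abundant genes were more often lower than higher. Among 791 genes of at least 200 CPM on average, 191 were lower and 95 higher, and among 5702 genes of at least 20 CPM the shares were 17.0% and 13.8%. Among the 3347 genes under 5 CPM, 342 were higher and 160 lower. Noncoding classes were small, and some of their shares were near the 12.8% and 11.6% of all genes. Of 128 antisense RNAs 16 rose, a share near that of all genes, and 1 fell. Of 220 intergenic RNAs 36 rose and 17 fell. Of 97 processed transcripts 3 rose and 12 fell, the latter a share near that of all genes. Of 28 RNAs from bidirectional promoters 1 rose and 2 fell, and of 22 sense intronic RNAs none was called. The sources used here do not say whether the counting used strand, so reads of an antisense RNA and its partner cannot be told apart.

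**Figure D1:**
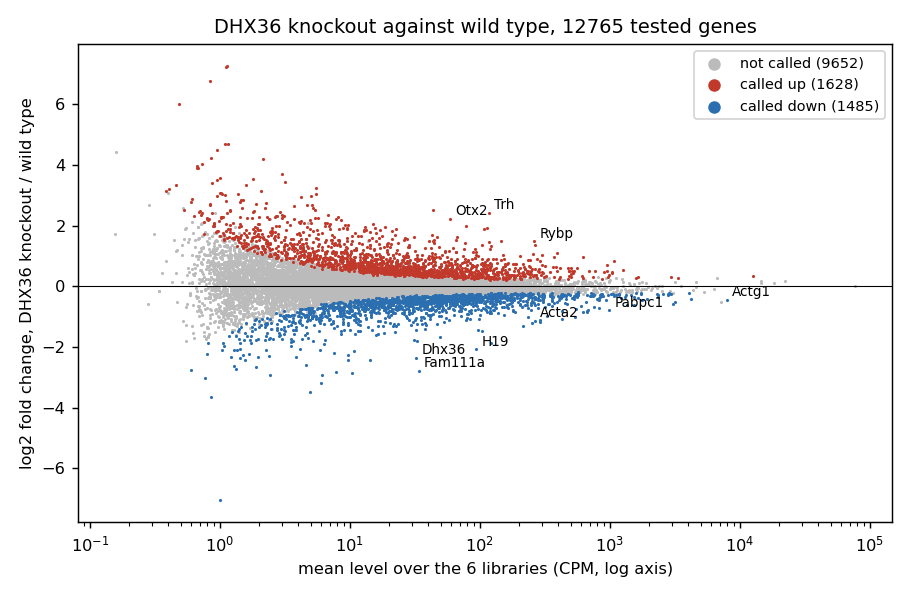
Log2 fold change of the knockout over wild type (vertical axis) against the mean level over the 6 libraries in CPM (horizontal axis, log scale), 1 point per tested gene. Red points are the 1628 genes called higher, blue points the 1485 called lower, grey points were not called; the largest changes lie at low levels.

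One chromosome stood apart, and it bears on many results below. On chromosome 6, 284 of 586 tested genes were higher in the knockout (48.5%) and 19 were lower. The median log2 fold change of the chromosome was 0.48, against 0.00 over all genes tested. Over genes of at least 20 CPM, the chromosome's median against the wild-type mean was 0.42, 0.44 and 0.44 in the 3 knockout libraries. The medians of the other 19 chromosomes, without Y and mitochondrial genes, lay between -0.13 and -0.01 in the same libraries. All 3 knockout libraries thus showed the shift, and to nearly the same size. Genes of chromosome 6 took 3.76% to 3.84% of the summed CPM in wild type and 4.99% to 5.12% in the knockout.

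The shift was larger in the distal stretch of the chromosome. Split at 80 Mb, a boundary chosen after the values were seen, 43 of 111 genes of at least 20 CPM rose before it, with a median of 0.23. From 80 Mb on, 140 of 176 rose (79.5%) and 3 fell, with a median of 0.54, or 1.46-fold. In windows of 10 Mb with at least 10 such genes, the 10 windows of chromosome 6 had medians of 0.21 to 0.62. The 199 windows elsewhere ran from -0.28 to 0.18, so each of these 10 lay above every one of the 199. Windows of chromosome 6 with fewer genes were less clear: at 0 to 10 Mb 2 of 7 genes rose and 3 fell, with a median of 0.15, and at 40 to 50 Mb 4 of 9 rose, with a median of 0.12, both within the range seen elsewhere. The shift was not seen in the other genotypes. The median of chromosome 6 in the double knockout against the FANCJ knockout was 0.08, and its summed level was 36842 to 37792 CPM in the FANCJ knockout and 35314 to 35798 CPM in the double knockout, beside 38276 to 38567 CPM in wild type and 49040 to 50339 CPM in the DHX36 knockout. The copy number of the chromosome was not tested. The other chromosomes together had 1344 genes higher and 1466 lower of 12179.

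**Figure D2:**
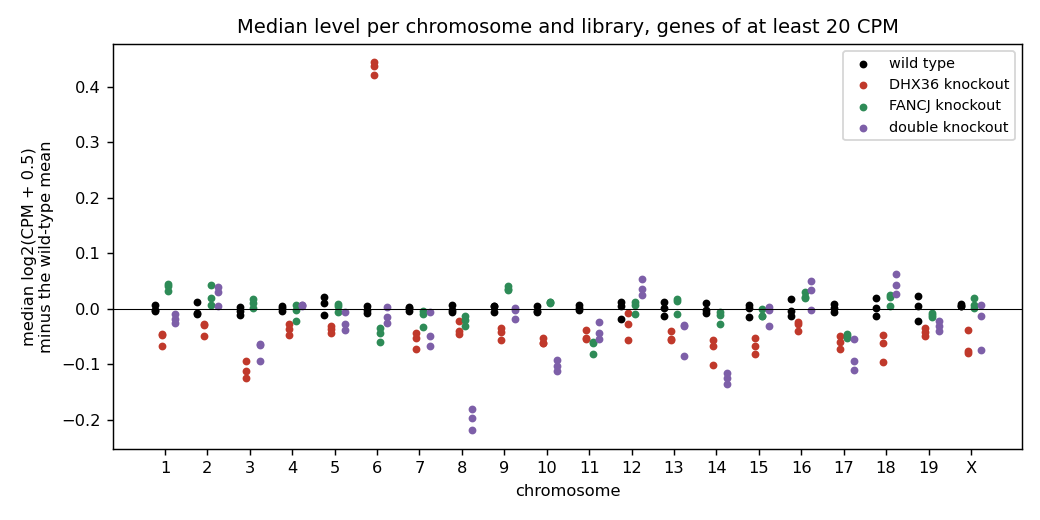
Median of log2(CPM + 0.5) minus the wild-type mean for each chromosome other than Y and the mitochondrial one (horizontal axis), over genes of at least 20 CPM, 1 point per library, coloured by genotype. The 3 DHX36 knockout libraries lie at 0.42 to 0.44 on chromosome 6 and between -0.13 and -0.01 on the other 19 shown.

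Several well-known genes lie in the shifted chromosome. Rybp, a subunit of a Polycomb repressive complex, was at 152.6, 131.2 and 129.5 CPM in wild type and at 380.8, 377.6 and 398.4 CPM in the knockout. Its log2 change of 1.49 (SE 0.0935) was well above the chromosome's median. Gadd45a, a growth arrest and DNA damage gene, rose from 145.5 to 150.8 CPM to 364.1 to 393.0 CPM (1.37). Cmas, which makes the activated form of sialic acid, was at 125.3 to 152.0 CPM in wild type and 266.5 to 281.6 CPM in the knockout (1.01), while in the other 6 libraries it differed by 0.01. The ubiquitin ligase gene Mkrn1 rose by 0.98. The replication helicase subunit Mcm2 rose by 0.59 here and was at -0.15 in the other libraries, and the RNA-binding protein gene Tia1 rose by 0.77 here and fell by 0.27 there. Nanog, a core pluripotency gene on the same chromosome, was at 217 ± 10.6 CPM (SD, n = 3) in wild type and 212 ± 15.9 CPM in the knockout, a difference of -0.04 that was not called.

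The Y chromosome also moved as a group. Of 6 tested Y-linked genes, 5 rose. Ddx3y, an RNA helicase gene, was at 9.96, 8.31 and 9.84 CPM in wild type and 34.2, 27.6 and 35.8 CPM in the knockout (1.81, SE 0.156). Eif2s3y, a subunit of the translation initiation factor eIF2, rose from 9.52 to 11.5 CPM to 31.9 to 36.2 CPM (1.69). Uty, a histone demethylase family gene, rose from 0.66 to 1.59 CPM to 4.22 to 6.16 CPM (2.24), and Kdm5d was not called (0.08, adjusted p = 0.954). Wild type was the lowest of the 4 genotypes for Ddx3y and Eif2s3y: the FANCJ knockout was at 22.1 to 26.7 and 15.2 to 18.2 CPM, and the double knockout at 34.5 to 43.9 and 22.4 to 25.3 CPM. These genes have close copies on the X chromosome, and how reads with several alignments were counted was not given.

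Genes of the formative and primed states, which follow the naive state in the embryo, were higher. Of 20 tested members, 10 rose and 1 fell, with a median of 0.47, against 12.8% and 11.6% of all genes and a median of 0.00. Otx2 (chromosome 14, 48657677 to 48673819), a transcription factor of the formative state, was at 27.5, 20.7 and 13.8 CPM in wild type and at 93.9, 95.2 and 102.1 CPM in the knockout. The groups were far apart, and the log2 change was 2.23 (SE 0.151, adjusted p = 9.9e-10). The de novo DNA methyltransferase gene Dnmt3a was at 71.7, 75.3 and 80.8 CPM in wild type and at 216.6, 203.8 and 226.4 CPM in the knockout (1.51, SE 0.0859). Lef1, a transcription factor of Wnt signalling, rose by 1.28 and the kinase gene Pim2 by 1.16. One member of this list lies on chromosome 6 and was not called, so all 10 rises lie elsewhere.

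**Figure D3:**
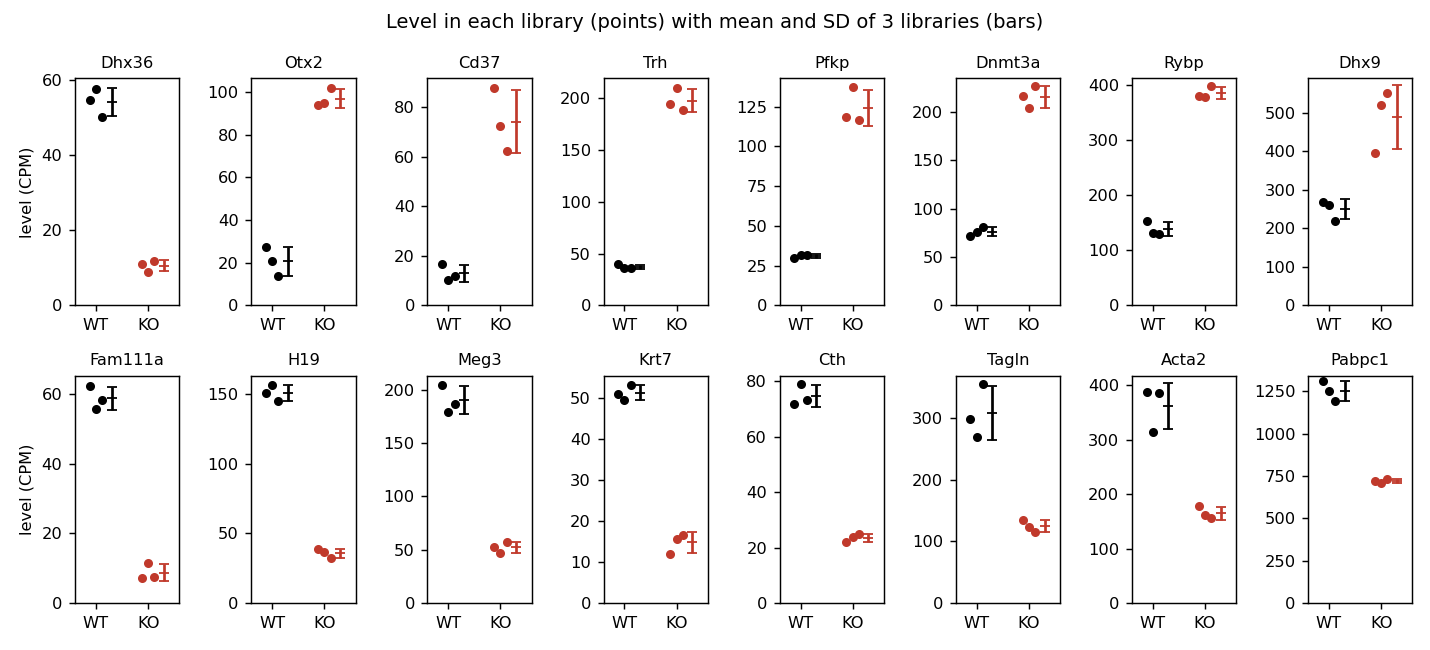
Level in CPM (vertical axes, from 0, a scale per gene) in the 3 wild-type (black, WT) and 3 knockout (red, KO) libraries, with the mean and SD of 3 libraries beside the points. The upper row holds Dhx36 and 7 genes that rose, the lower row 8 genes that fell; in none do the groups overlap.

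Naive pluripotency genes moved both ways. Of 18 tested, 6 rose and 3 fell, with a median of 0.12. Dppa3, a maternal factor that protects DNA methylation in the zygote and lies on chromosome 6, was at 19.5, 18.03 and 24.1 CPM in wild type and at 71.3, 60.5 and 63.9 CPM in the knockout (1.68). Fbxo15, an F-box gene of stem cells, rose by 0.87. Tdgf1, a co-receptor of Nodal, rose by 0.73 and the transcription factor gene Tbx3 by 0.51. The 3 that fell were transcription factor genes, Gbx2 (-0.73), Nr0b1 (-0.71) and Tfcp2l1 (-0.67).

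Most core pluripotency genes were not called. Of 12 tested, 3 rose and 1 fell. Dppa2, a chromatin factor, rose from 417.4 to 481.8 CPM to 669.3 to 684.2 CPM (0.60, adjusted p = 5.1e-06). Sox2 (0.28), Sall4 (0.32) and Trim28 (-0.25) were called with small differences. Sox2 lost its call without knockout library 2 (adjusted p = 0.0538), wild-type library 1 (0.0777) or wild-type library 2 (0.0569). Sall4 lost it without knockout library 1 (0.0813) and Trim28 without knockout library 2 (0.0634). Pou5f1, which encodes OCT4, was at 99.6 ± 7.09 CPM in wild type and 118 ± 6.12 CPM in the knockout (SD, n = 3; 0.25, adjusted p = 0.0621), and at 0.0499 when the genes of chromosome 6 were left out of the fit. Nanog, Zfp42, Esrrb, Lin28a, Utf1, Dppa4 and L1td1 had log2 differences between -0.07 and 0.16, none of them called. The summed level of the 12 genes was 7145 to 7719 CPM in wild type and 7720 to 7961 CPM in the knockout.

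Of 20 genes of the 2-cell-like state, a rare condition in which cells transcribe genes of the early embryo, 8 could be tested. Of these, 4 rose and 1 fell, with a median of 0.98, and only 1 of the 8 reached 20 CPM. Zscan4d was at 26.4, 16.4 and 25.8 CPM in wild type and at 71.8, 68.8 and 69.2 CPM in the knockout (1.63). The deubiquitinase genes Usp17la and Usp17lc rose by 2.34 and 2.04, from means of 2.222 and 5.915 CPM, and Zscan4c rose by 0.89. The Zscan4 and Usp17l families have near-identical copies, so the split of reads between copies is uncertain. Tmem92 fell by 1.08 from a mean of 2.867 CPM, and its call was lost with DESeq2 (adjusted p = 0.0535). Zfp352 (1.07), Tcstv3 (0.47) and Duxf3 (-0.16) were not called.

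Markers of cell types outside the pluripotent lineage moved in both directions. Summed trophoblast markers were at 975 to 1123 CPM in wild type and 669 to 735 CPM in the knockout. Much of that sum came from keratins. Krt8 averaged 579.7 CPM in wild type and 275.1 CPM in the knockout, and Krt18 202.7 and 104.5 CPM. The fall of the sum is thus largely a fall of keratins. The list's transcription factor genes went both ways: Gata2 and Tead4, on chromosome 6, and Hand1 and Eomes rose, and Gata3 fell. The others tested were not called. Neuroectoderm markers were at 446 to 465 CPM and 378 to 388 CPM, and mesendoderm markers at 38.5 to 41.7 CPM and 62.1 to 74.2 CPM. Primitive endoderm markers were at 816 to 962 CPM in wild type and 787 to 818 CPM in the knockout, and fibroblast markers at 311 to 344 CPM and 327 to 365 CPM. No gene of these lists was at 0 in all 6 libraries. In bulk samples, fewer cells of a type and less RNA per cell cannot be told apart. The part of other cell types in the results was not tested.

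Within those lists the members did not move together, and neuroectoderm came closest to it. There 7 of 9 tested genes fell and 2 rose, with a median of -0.74. The neural transcription factor gene Pax6 and Map2, of the neuronal cytoskeleton, each fell by 0.99, from means of 7.33 and 6.87 CPM. Sox1 and Nefm, from means of 2.74 and 2.58 CPM, fell too. Both lost their calls with DESeq2 (adjusted p = 0.0526 and 0.0612) and at equal depth (0.119 and 0.16). The stathmin gene Stmn3 rose by 1.48, and the tubulin gene Tubb3, at a mean of 120.8 CPM in wild type, rose by 0.36. Of 13 trophoblast genes 4 rose and 5 fell. Gata2 and Tead4, both on chromosome 6, rose by 1.30 and 0.88, Hand1 by 1.25 and Eomes by 0.82. Gata3 fell by 1.05, and the others that fell were the keratin genes Krt7, Krt8, Krt18 and Krt19. Of 16 primitive endoderm genes 4 rose and 4 fell. The transcription factor genes Sox17 and Gata6 rose by 2.10 and 1.12 from under 5 CPM, and the collagen genes Col4a1 and Col4a2 fell by 0.87 and 0.93. Of 6 mesendoderm genes 2 rose, among them T, the brachyury gene (1.06). Of 9 fibroblast genes 2 rose and 1 fell.

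Signalling genes differed by pathway. Of 26 genes of the Nodal and BMP pathways, 11 rose and 2 fell, with a median of 0.26; 1 of the 11 lies on chromosome 6. The ligand gene Bmp4 was at 69.5, 75.8 and 67.2 CPM in wild type and at 172.3, 159.9 and 171.8 CPM in the knockout (1.24). Lefty1, a Nodal inhibitor, rose by 0.94. Smad3, a signal transducer, rose by 0.85. Of the BMP targets, Id3 rose by 0.87 and Id1 by 0.50, while Id2 fell by 0.94. Of 29 FGF and ERK genes, 8 rose and 3 fell; 3 of the 8 lie on chromosome 6. The feedback inhibitor gene Spry4 rose by 1.24, the receptor gene Fgfr4 by 1.82 from under 3 CPM and the transcription factor gene Etv5 by 0.76. The receptor genes Fgfr1 and Fgfr2 fell by 0.39 and 0.76, and the inhibitor gene Spred1 fell by 0.56. Of 30 Wnt genes, 5 rose and 7 fell, 2 of the 5 on chromosome 6. The ligand gene Wnt5b, 1 of those 2, rose by 2.45 from under 1 CPM to 2.40 to 3.89 CPM, and the co-receptor gene Lrp6, the other, rose by 0.56. Lef1 (1.28) and T (1.06) rose elsewhere. The ligand genes Wnt6 and Wnt7b fell by 1.74 and 1.49, the effector gene Tcf7l2 fell by 0.83 and Wls, needed to secrete Wnt proteins, fell by 0.77.

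The most uniform group was that of actin and contractile genes, which build the cytoskeleton and are typical of smooth muscle: 20 of 22 tested genes fell and 1 rose, with a median of -0.80. Myl9, a myosin light chain gene (chromosome 2, 156775420 to 156781658), was at 15.3, 16.8 and 16.4 CPM in wild type and at 3.33, 3.63 and 2.22 CPM in the knockout (-2.44, SE 0.239). Tagln, the transgelin gene, was at 299.1, 269.4 and 355.8 CPM in wild type and at 134.6, 123.8 and 114.5 CPM in the knockout (-1.31). Acta2, the smooth muscle actin gene, fell from 314.3 to 388.4 CPM to 155.6 to 178.7 CPM (-1.13), and Acta1 fell by 1.18. The highly expressed cytoplasmic actins moved less: Actg1 fell by 0.44 and Actb by 0.51. Srf, which encodes a transcription factor of many of these genes, was at -0.16 and was not called. The exception, Zyx, which encodes a protein of cell adhesions, lies on chromosome 6 (0.32), and its call was lost without knockout library 1 (adjusted p = 0.0862), knockout library 2 (0.0785) or wild-type library 2 (0.138).

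In the Hippo, keratin and junction lists more genes fell than rose. Of 21 Hippo pathway genes, which control growth through YAP and TEAD proteins, 10 fell and 3 rose, with a median of -0.34. The 3 that rose were the transcription factor gene Tead4 on chromosome 6 (0.88), Yap1 (0.42), which encodes the coactivator itself, and the adaptor gene Sav1 (0.48). Leaving out knockout library 2, wild-type library 2 or wild-type library 3 ended the call of Yap1 (adjusted p = 0.158, 0.0838 and 0.162) and that of Sav1 (0.0789, 0.077 and 0.0744). The scaffold gene Amotl2 was at 416.9, 326.3 and 447.3 CPM in wild type and at 179.1, 183.1 and 192.6 CPM in the knockout (-1.10). The transcription factor gene Tead1 fell by 0.79, the target gene Ccn1 fell by 0.84, while its relative Ccn2 was at 0.22 and not called, and the kinase gene Stk3 fell by 0.70. Of 22 genes of simple epithelial keratins and junctions, 11 fell and 2 rose, with a median of -0.29. Krt7 was at 51.1, 49.7 and 53.4 CPM in wild type and at 12.01, 15.6 and 16.7 CPM in the knockout (-1.79). Krt8, Krt18 and Krt19 fell by 1.07, 0.96 and 1.01.

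The largest single fall among genes of at least 20 CPM, predicted genes left out, was that of Fam111a, a protease gene that acts in DNA replication (chromosome 19, 12545740 to 12589768). It was at 62.4, 55.7 and 58.3 CPM in wild type and at 7.23, 11.5 and 7.39 CPM in the knockout (-2.79, SE 0.143, adjusted p = 1.87e-11). Other large falls were those of Cited1, a transcription coregulator gene (-1.51), Klhl13, an adaptor of a ubiquitin ligase (-1.47), the splicing regulator gene Mbnl2 (-1.44) and the kinase gene Camk2d (-1.31). Among abundant genes, Snhg3, which hosts a small nucleolar RNA, fell by 1.18, the metallothionein gene Mt2 by 1.02 and the calcium-binding protein gene S100a11 by 1.01. Cd37, a tetraspanin gene, had the largest rise among genes of at least 20 CPM, predicted genes left out. It was at 16.8, 10.1 and 11.9 CPM in wild type and at 87.7, 72.3 and 62.3 CPM in the knockout (2.53, SE 0.172). Trh, of the thyrotropin-releasing hormone on chromosome 6, was at 35.6 to 39.6 CPM in wild type and 189.0 to 210.6 CPM in the knockout (2.41). The remaining large rises were Psors1c2 (1.90), the heme-binding protein gene Hebp1 on chromosome 6 (1.64), the mitochondrial adenylate kinase gene Ak4 (1.61), Pwwp2b (1.57), Dcaf5, a receptor of a ubiquitin ligase (1.55), Ddx19b, of an mRNA export helicase (1.54), and Crip1 (1.53). The autophagy gene Gabarapl2 (1.11), the phospholipase gene Pla2g1b (1.08) and the phosphatase gene Ptpn12 (1.05) rose among abundant genes.

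Among RNA helicases, a relative of DHX36 rose. Of 15 DEAH-box genes, 3 rose and 2 fell, Dhx36 among the latter. Dhx9, a nuclear helicase that also unwinds G-quadruplexes, was at 268.1, 261.8 and 219.4 CPM in wild type and at 395.1, 520.7 and 552.1 CPM in the knockout (0.97, SE 0.134, adjusted p = 1.55e-05). Dhx15 and Dhx32 rose by 0.62 and 0.44 and Dhx16 fell by 0.53. Of 18 genes that act on G-quadruplexes, 3 rose and 1 fell; Cnbp (0.48) and Recql (0.55) of the 3 lie on chromosome 6.

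The RNA pathways in which DHX36 is known had unlike shares of called genes. Of 18 genes that bind AU-rich elements or remove poly(A) tails, none rose and 1 fell, and of 14 genes of the eIF2 kinases and their partners none was called. The 1 was Elavl1, which encodes the stabilising protein HuR; it was at 877.0, 1027 and 954.4 CPM in wild type and 618.9, 716.9 and 750.6 CPM in the knockout (-0.45). Of 16 stress granule genes 2 rose and 3 fell, and 1 of the 2 lies on chromosome 6. Pabpc1, the cytoplasmic poly(A)-binding protein gene, was at 1309, 1251 and 1194 CPM in wild type and at 718.4, 707.8 and 731.0 CPM in the knockout (-0.80, SE 0.0724), and the cold-inducible RNA-binding protein gene Cirbp rose by 0.93. Of 18 mRNA decay genes 4 rose and 3 fell. Upf2, of nonsense-mediated decay, rose by 0.78 and the decapping helicase gene Ddx6 by 0.67. Of 4 tested genes whose RNA has been described as bound by DHX36, Yy1 rose by 0.31 and Nkx2-5 fell by 0.95; Gnai2 (0.04) and Trp53 (-0.02) were not called, and Pitx1 and Plau were too low to test. The call of Nkx2-5 was lost without knockout library 3 (adjusted p = 0.116) or wild-type library 3 (0.0721).

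Metabolic genes showed falls in glutathione and cysteine metabolism. Of 25 tested genes, 9 fell and 1 rose, with a median of -0.12. Cth, which makes cysteine from cystathionine, was at 71.7, 79.0 and 73.3 CPM in wild type and at 22.0, 23.7 and 24.9 CPM in the knockout (-1.67, SE 0.0994). The glutathione transferase genes Gstm2, Gsto1 and Gstp2 fell by 1.76, 1.44 and 1.35, and Gpx4, a peroxidase gene that protects lipids, rose by 0.44. Of 31 proteasome subunit genes 11 fell and none rose, with a median of -0.19. Their changes were small: Psmd11 fell by 0.62, Psmc2 by 0.60 and Psmc6 by 0.34.

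Genes that use sugar and fat as fuel did not move as 1 group. Of 24 glycolysis genes 7 rose and 5 fell, and 4 of the 7 lie on chromosome 6. Pfkp, of the platelet form of phosphofructokinase, was at 29.4, 31.8 and 31.6 CPM in wild type and at 118.8, 137.4 and 116.7 CPM in the knockout (2.00, SE 0.111). Pdk1, which limits the entry of pyruvate into mitochondria, rose by 1.00, while the aldolase gene Aldoc fell by 1.11 and the regulator gene Pfkfb3 by 0.87. Of 23 fatty acid oxidation genes 7 rose and 2 fell; Cpt1a, of the step that admits fatty acids to mitochondria, was at 13.7, 10.2 and 17.1 CPM in wild type and at 34.8, 35.2 and 46.5 CPM in the knockout (1.53), and Acads rose by 1.13. Of 20 ATF4 targets, genes of the amino acid response, 6 rose and 3 fell. Atf4 itself rose by 0.92 and Ddit4 by 1.28, while Cth (-1.67) and the serine synthesis gene Phgdh (-0.70) fell.

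Imprinted genes, which are transcribed from the maternal or paternal copy only, were lower more often than higher. Of 15 maternally expressed genes 7 fell and 2 rose, with a median of -0.21. H19 (chromosome 7, 142575529 to 142578143), a noncoding RNA, was at 151.0, 156.6 and 145.2 CPM in wild type and at 38.6, 36.5 and 32.2 CPM in the knockout (-2.08, SE 0.0934). Meg3, a noncoding RNA of the imprinted cluster on chromosome 12, was at 205.0, 179.4 and 187.1 CPM and at 52.2, 46.7 and 57.5 CPM (-1.86). Mirg, of the same cluster, fell by 1.33, and the cell cycle inhibitor gene Cdkn1c rose by 1.09. Of 17 paternally expressed genes 5 fell and 1 rose; Nnat fell by 1.21 and the growth factor gene Igf2 from 439.4 to 499.2 CPM to 311.3 to 339.6 CPM (-0.51). The share from each parental copy was not measured.

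**Figure D4:**
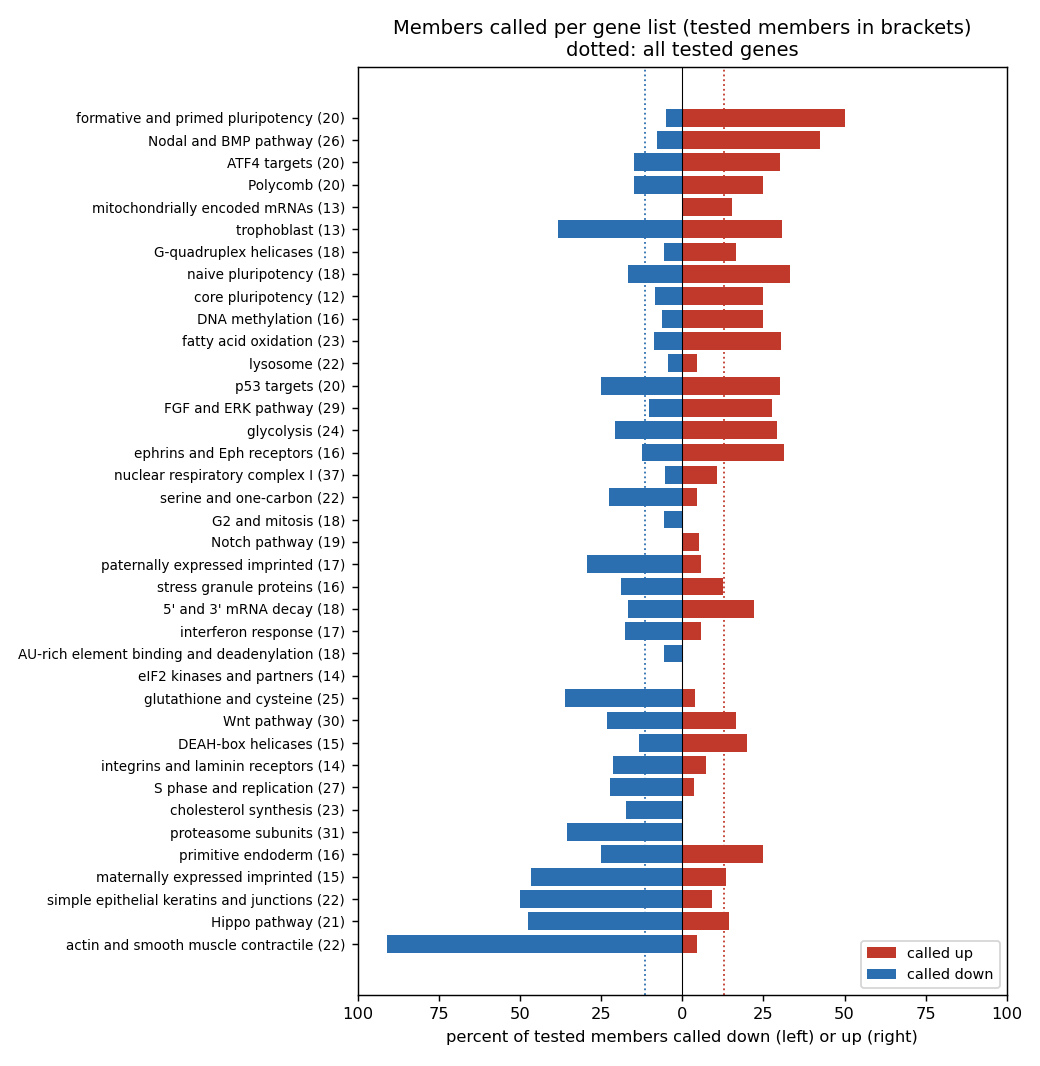
Percent of the tested members of each gene list (rows, number tested in brackets, lists of at least 10) called higher (red, right) or lower (blue, left) in the knockout, ordered by the list's median log2 fold change; dotted lines mark all tested genes (12.8% and 11.6%). Actin and contractile genes have the longest bar, with 20 of 22 members lower.

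Among chromatin genes, Polycomb members rose mainly where the chromosome was shifted. Of 20 tested 5 rose and 3 fell, and 3 of the 5, Rybp, Ezh2 (0.70) and Aebp2 (0.84), lie on chromosome 6. Phf19, elsewhere, rose from 0.884 to 1.41 CPM to 3.23 to 3.47 CPM. Of 16 DNA methylation genes 4 rose and 1 fell.

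Genes were also sought that had no count in all 3 libraries of a group and at least 10 in each of the other. Apold1, on chromosome 6, had none in wild type and 24, 12 and 23 counts in the knockout, at least 10.9-fold higher against a floor of 3 counts over the group. A730046J19Rik, on the X chromosome, had 18, 12 and 12 counts, at least 8.14-fold higher. No gene was at 0 in the knockout and reached that count in wild type. The knockout libraries were deeper, so 10 counts were easier to reach there and 0 was more likely in wild type. The search was thus not even between the directions. The floors cover counting error only.

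Short guanine-rich motifs were searched in promoters, since the protein acts on such sequences in DNA and RNA. The window held 250 bases before and 50 after a RefSeq transcription start (GRCm38.p6), and 9988 of the 12765 tested genes had 1. The motif was 4 runs of at least 3 G, joined by loops of 1 to 7 bases of any kind, on the coding strand or, as runs of C in the window, on the template strand. Of the 15 largest rises 13 had a promoter and 2 a motif, and of the 15 largest falls 11 had a promoter and 3 a motif. These 5 are shown because they belong to the genes that changed most. They are written 5′ to 3′ on the strand with the G runs, which are in capitals.
Dcaf5, coding strand, chr12:80436597-80436616, minus strand: GGGGGGaaGGGGaGGGaGGG
Crip1, coding strand, chr12:113151973-113151993, plus strand: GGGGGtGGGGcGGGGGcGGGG
Klhl13, template strand of a minus-strand gene, chrX:23365132-23365155, plus strand: GGGaGGGGagcgtgtGGGcGGGGG
Mbnl2, coding strand, chr14:120275658-120275682, plus strand: GGGcGGGGcctgtGGGaaggaaGGG
Camk2d, coding strand, chr3:126596921-126596949, plus strand: GGGGGcttcgctGGGcGGGGagaggaGGG
Dcaf5 and Crip1 rose and the other three fell, so the motif was found with both directions. A match is a description of letters and not a site.

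Over all tested genes, the coding-strand motif was in 18.6% of risen, 15.1% of fallen and 14.8% of uncalled genes with a promoter, against 9.88% of all 27025 promoters of this length. On the template strand the order was the other way, with 15.4% of risen, 17.4% of fallen and 14.5% of uncalled genes, and 9.36% of all promoters. The median log2 fold change was 0.05 with a coding-strand motif and 0.00 without a motif on either strand, a small difference. Promoters with a coding-strand motif were richer in GC, with a median of 67.3% against 59.0%. With promoters split by GC into 3 groups of about equal number, the coding-strand motif of the GC-richest group was in 33.6% of risen, 24.5% of fallen and 27.1% of uncalled genes, and the template-strand motif in 24.7%, 31.1% and 26.4%. In the middle group the coding-strand shares were 14.5%, 14.6% and 12.7%, so the difference between risen and fallen genes was not seen on that strand. The template-strand shares of the middle group were 14.0%, 17.4% and 13.1%, lower in risen than in fallen genes, as in the GC-richest group. In the GC-poorest group the order was the other way, with the coding-strand motif in 5.45% of risen and 6.88% of fallen genes and the template-strand motif in 6.23% and 4.42%.

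The same loss was measured a second time in cells lacking FANCJ, where the double knockout was set against the FANCJ knockout. That comparison called 4697 genes (36.8%), and it shares no library with the first. Of the 1628 risen genes 85.5% were higher there too and 58.7% were called higher, while 51 were called lower. Of the 1485 fallen genes 89.2% were lower and 63.0% called lower, while 29 were called higher. Of the 9652 genes not called in the first comparison, 28.2% were called in the second, in either direction. The median change over all tested genes there was 0.02. Genes called the same way in both were 1891, which is 60.7% of the first list and 40.3% of the second. The shares were unlike on chromosome 6 and elsewhere. Of the 284 risen genes on chromosome 6, 34.5% were called higher in the other libraries, and of the 1339 elsewhere, without the Y chromosome, 63.9%. The median change of the former was 0.74 in the first comparison and 0.21 in the other, and of the latter 0.73 and 0.59. Chromosome 8 was lower in the other comparison, with a median of -0.13 against -0.02 in the first. Over genes of at least 20 CPM, its medians against the wild-type mean were -0.22, -0.20 and -0.18 in the double knockout libraries. In the FANCJ knockout libraries they were -0.02, -0.01 and -0.03. Its part in the interaction calls was not tested.

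**Figure D5:**
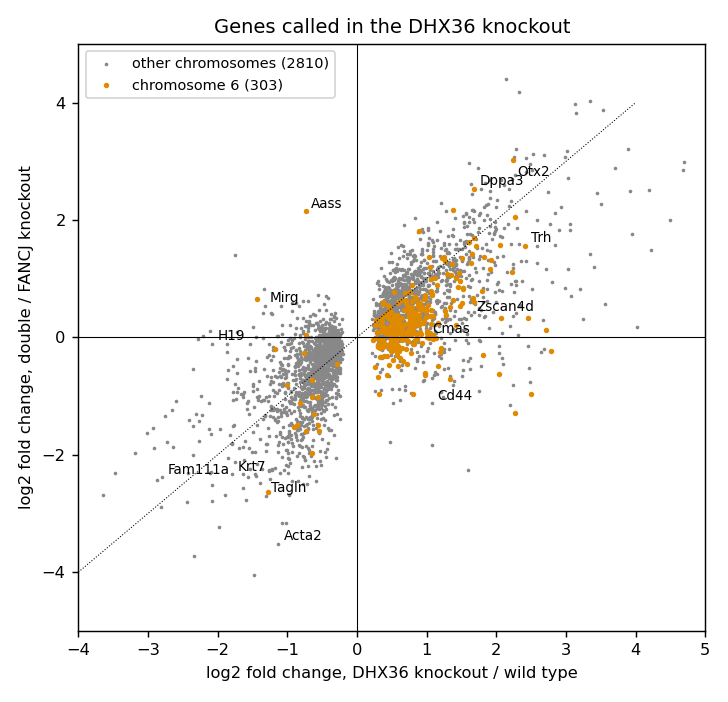
Log2 fold change of the double over the FANCJ knockout (vertical axis) against that of the DHX36 knockout over wild type (horizontal axis) for the 3113 called genes, with chromosome 6 in orange and the dotted line marking equal changes. The axes leave out 5 genes; most risen genes of chromosome 6 lie below the dotted line.

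Some of the changes named above were of like size in both backgrounds. Fam111a fell by 2.38 in cells lacking FANCJ, Krt7 by 2.33 and Pabpc1 by 0.84, and Otx2 rose by 2.69, Cd37 by 3.13, Pfkp by 2.21 and Dhx9 by 0.98. For these 7 genes the difference between the effects was not called, which does not show that they are equal. Others differed by the test of that difference, the interaction, which called 1122 genes (8.79%). H19 was at -0.10 and Meg3 at -0.11 in cells lacking FANCJ, neither called, with interactions of 1.98 and 1.75. H19 stood at 598.5 to 695.8 CPM in the FANCJ knockout and 574.1 to 607.4 CPM in the double knockout, above both groups of the first comparison. Acta2 and Tagln fell further there, by 3.52 and 2.70, with interactions of -2.38 and -1.39. The list of actin and contractile genes had a median of -1.40 there and -0.80 here, and the list of 2-cell-like genes -0.69 there and 0.98 here.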

How the data were processed

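Bulk RNA was sequenced from 12 libraries of 4 genotypes with a protocol similar to CEL-Seq2, per the labels' protocols. The deposited table holds raw counts, 1 column per library, that the authors had not normalised. BWA, GRCm38 and hg38 are named in the submitters' processing notes, with no versions or roles; molecule collapsing, strand and multiple alignments are not given in the sources used here. The 92 spike-in rows were left out. Of 32285 genes, 32158 matched GENCODE M21 (GRCm38), which gave coordinates.

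Counts of all 12 libraries were fitted with edgeR 4.0.16 (R 4.3.3): TMM normalisation, expression filter by genotype, quasi-likelihood F test, genotype as the only term, two-sided, with Benjamini-Hochberg adjustment over 12765 genes. CPM used the normalised totals. On simulated counts for this comparison (12524 genes), 38 of 68 genes changed 1.5-fold, 52 of 66 changed 2-fold and 62 of 66 changed 4-fold were recovered, and 10 unchanged genes were called. Replicates were no copies of each other: their chi-square statistic was 4.59 to 12.3 times its degrees of freedom.

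The members and the 44 gene lists were chosen with earlier results of these data known. Genes were named by a rule: Dhx36 and Brip1; the 15 largest rises and falls among called genes without overlap and of at least 20 CPM, and 8 of each of at least 200 CPM, without predicted genes; up to 4 called members per list and direction; all core pluripotency, Y-linked and DHX36 partner genes; genes at 0 in a group; and the 6 largest interactions. One gene that the rule takes is not reported here. Actg1, Actb, Srf, Ccn2 and Id1 lie outside it and were chosen after their values were seen. Alternatives were RLE normalisation, no filter, DESeq2 1.42.0, a replicate block, equal depth, the 2 genotypes alone and leaving out each library; leaving out chromosome 6 was added after the data were seen.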

Additional observations from a re-analysis of the deposited data

Results flagged for a closer look

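The test of the difference between the effect of DHX36 loss in cells lacking FANCJ and its effect in cells with FANCJ called 1122 genes by edgeR. Values below are that difference on the log2 scale. A negative value is a smaller rise, a larger fall or a rise turned to a fall in cells lacking FANCJ.

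Maternally expressed imprinted RNAs fell with FANCJ present and were not called lower without it: the difference was 1.98 for H19, 1.75 for Meg3 and 1.86 for Mirg, which rose in cells lacking FANCJ. Paternally expressed Nnat (-1.04) and Igf2 (-0.48) fell further there.

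Of the contractile and epithelial genes named, these fell further in cells lacking FANCJ: Acta2 at -2.38, Tagln at -1.39, Acta1 at -1.05, Krt8 at -0.96, Krt18 at -1.19, Krt19 at -0.92 and S100a11 at -0.69. The collagen genes Col4a1 (-0.88) and Col4a2 (-1.02), Wls (-1.72), Perp (-0.90), Gsto1 (-0.93), Pfkfb3 (-1.16) and Id2 (-0.55) did so too. Pmp22, a myelin protein gene, rose by 0.47 with FANCJ and fell by 1.78 without it (-2.25). Cd44, an adhesion receptor gene, rose by 1.08 and fell by 1.12 (-2.20). Irs1, of insulin signalling, was at -0.14 and fell by 2.26 (-2.12). Ccnd2, a cyclin gene on chromosome 6, was at 0.33 and fell by 1.80 (-2.13); without wild-type library 2 it was called in the first comparison (adjusted p = 0.0482).

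Rises were smaller, missing or turned to falls in cells lacking FANCJ for genes of the early embryo and of extraembryonic lineages. These were Zscan4d (-1.25), Zscan4c (-1.21), Usp17la (-1.78), Usp17lc (-2.19), Sox17 (-2.55), Srgn (-2.44) and Hand1 (-1.35). The same held for the signalling genes Id3 (-1.11), Smad3 (-0.75), Bmp4 (-0.49), Spry4 (-0.77), Fgfr4 (-1.48), Lef1 (-0.69) and Pim2 (-0.55), and for Pla2g1b (-0.70), Ptpn12 (-0.44) and Pdk1 (-0.47). On chromosome 6 it held for Trh (-0.85), Rybp (-0.53), Cmas (-0.99), Tia1 (-1.05), Mcm2 (-0.74), Cnbp (-0.63) and Recql (-0.69), and on the Y chromosome for Ddx3y (-1.13), Eif2s3y (-1.13) and Uty (-1.87).

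The difference was positive for Dppa3 (0.86) and Tbx3 (0.77), which rose more in cells lacking FANCJ, and for Nr0b1 (0.82), Tfcp2l1 (0.88), Gstm2 (0.97), Cth (0.70), Klhl13 (0.90), Dhx16 (0.63) and Pola1 (0.86), which fell less or not at all. Aass, a lysine breakdown gene on chromosome 6, had the largest difference, 2.89: it fell by 0.74 with FANCJ and rose by 2.15 without it. Among genes with small or uncalled differences in the first comparison, it was 0.66 for Esrrb, 0.46 for Utf1, 0.32 for Trim28, -0.46 for Lin28a and -1.29 for Zyx. For Kdm5d it was 6.37, a fitted value that is no bound, since all FANCJ knockout libraries were at 0. Of these 66 genes, 51 stayed called under every alternative. Bmp4, Fgfr4, Id2, Kdm5d, Lef1, Lin28a, Pdk1, Pim2, Ptpn12, Recql, S100a11, Trim28, Utf1, Uty and Zscan4c were not, with highest adjusted p-values of 0.0516 to 0.151.

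Spike-in transcripts, which enter no comparison, had at most 16 counts in any of the 6 wild-type and DHX36 knockout libraries. Double knockout library 1 had 30.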

How the results depend on the processing

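The number of genes called, 3113, was 2503 to 3192 under the alternatives, and leaving out 1 library gave 2503 to 2700. Higher genes were 1244 to 1746 and lower genes 1175 to 1514, so each count stayed within 1.5 times, and the higher share of calls was 49.7% to 54.7%. DESeq2 called 2835 genes, and equal depth 2611. Of 240 named genes, 186 kept their call under every setting and none changed sign while called; 54 lost or gained a call under some. Of 44 list medians, 32 kept their sign. The replicate numbers do not pair the samples (correlations of same-numbered libraries of -0.04, 0.11 and -0.10); a fit with the replicate number as a block called 3004 genes.

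The median of chromosome 6 was 0.45 to 0.49 when 1 library was left out and 0.44 over genes of at least 20 CPM. The promoter motif difference, 0.05, was 0.0417 to 0.0661 when 1 library was left out, 0.0355 with loops of up to 12 bases, 0.0377 among the promoters poorest in GC and -0.0051 in the middle group. Genes under 5 CPM are limited by depth, most in wild type.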

Other observations

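The other gene groups are set against 24.4% of all genes called in either direction. Most had shares near that or below it, while p53 targets and the ephrin and Eph receptor genes were above it. Of 23 cholesterol synthesis genes 4 fell and none rose, among 27 S phase genes 6 fell and 1 rose, and of 18 genes of G2 and mitosis 1 fell. The S phase genes that fell included Pola1, a subunit of the primase polymerase (-0.70), and the riser, Mcm2, lies on chromosome 6. Of 20 p53 targets 6 rose and 5 fell: Gadd45a on chromosome 6 rose by 1.37 and Ei24 by 0.83, while Mdm2, the ubiquitin ligase gene that restrains p53, and Perp fell by 0.58 each. Of 17 interferon response genes 1 rose and 3 fell. Of 19 Notch genes 1 rose, and of 22 lysosome genes 1 rose and 1 fell.

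Of 16 ephrin and Eph receptor genes 5 rose and 2 fell, and of 14 integrin and laminin receptor genes 1 rose and 3 fell. Of 22 serine and one-carbon genes 1 rose and 5 fell. Of 37 nuclear genes of respiratory complex I 4 rose and 2 fell, 2 of the 4 on chromosome 6, and of 13 mitochondrially encoded mRNAs 2 rose.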
